A study of Arabidopsis thaliana with 12 samples.

Results

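Leaf transcripts of the TPR1-GFP eds1-2 line were compared with those of the TPR1-GFP line, gene by gene. Both lines are Arabidopsis thaliana that carry the pTPR1:TPR1-GFP transgene, in which the promoter of TPR1 drives a GFP-tagged TPR1. TPR1-GFP has the transgene in the Col-0 accession with a working EDS1 gene, and TPR1-GFP eds1-2 has it together with the eds1-2 mutation. Plants of both lines were untreated and grew on soil for 5 weeks with 10 h of light a day at 22 °C and 60% relative humidity. Each line had 3 libraries of leaf mRNA, 6 of the 12 libraries of the study. The other 6 came from TPR1-GFP sid2-1, which has the transgene with the sid2-1 mutation, and from Col-0 without the transgene. The authors listed 18884 genes, and 18877 of them were tested. The 838 genes with locus codes AT3G40000 to AT3G55000 lie on chromosome 3 around EDS1, here called the stretch around EDS1, and are counted apart in the totals, which leaves 18039 genes elsewhere.

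EDS1 is a lipase-like protein that works with its relatives PAD4 and SAG101 to pass on signals from immune receptors with a TIR domain. TPR1 is a corepressor of the TOPLESS family, proteins that lower the transcription of genes to which DNA-binding factors bring them. Plants in which EDS1-dependent defence is active at rest express many defence genes and commonly grow less. The eds1-2 allele was first isolated in the accession Landsberg erecta and was later crossed into Col-0, so DNA next to EDS1 can come from the donor accession. Reads from such DNA can map less well to the Col-0 reference, and in counts a lower transcript level and poorer mapping cannot be told apart.

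The 3 libraries of TPR1-GFP eds1-2 held 21516906, 23362262 and 21195080 counts, and those of TPR1-GFP held 25228804, 32018583 and 23281173. Within a line the libraries differed by more than sampling noise, with a chi-square divided by its degrees of freedom between 6.61 and 37.8. Log2 levels of 2 libraries of a line correlated at 0.974 to 0.990 across genes. Replicate 2 of TPR1-GFP eds1-2 and replicate 1 of TPR1-GFP stood farthest from the others of their line. Levels are given as counts per 1e+06 counts after TMM scaling (CPM) in replicate order. Changes are log2 ratios of TPR1-GFP eds1-2 over TPR1-GFP with a standard error (SE). A gene was called higher or lower where the p of edgeR's quasi-likelihood test, adjusted over all genes by Benjamini-Hochberg, was under 0.05. The labels name independent experiments without tying a replicate number to one, so these p-values measure only the spread between the libraries. TPR1 itself (AT1G80490), whose counts pool the native gene and the transgene, had 1048, 1327 and 990 CPM in TPR1-GFP eds1-2, against 1539, 1748 and 1617 CPM in TPR1-GFP. Its log2 change was -0.54 (SE 0.17, edgeR adjusted p = 0.0199). Without replicate 1 of TPR1-GFP eds1-2 the adjusted p was 0.0664, without its replicate 3 it was 0.0801, without replicate 2 of TPR1-GFP it was 0.0659, and under upper-quartile scaling it was 0.0579.

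Over all genes 9990 were called, or 52.9%, with 4760 higher (25.2%) and 5230 lower (27.7%) in TPR1-GFP eds1-2. By at least 1 log2 unit 10.3% were higher and 9.89% lower. The libraries of the lines did not overlap for 60.4% of all genes, and 6.42% were lower in TPR1-GFP eds1-2 than in all 9 other libraries of the study. Outside the stretch around EDS1 the calls were 4549 higher (25.2%) and 4930 lower (27.3%) of 18039 genes, and 52.5% were called in all. Of these genes 1842 (10.2%) were higher and 1725 (9.56%) lower by at least 1 log2 unit. The libraries of the lines did not overlap for 60.1% of them. With so many genes called, a list of genes is read below against these shares. The lists keep their members in the stretch, 63 of 1158 listed genes in 24 of the 37 lists. With the stretch left out, counts moved by over 1.5 times for lectin receptor kinases (5 higher) and for JAZ repressors, vascular markers and root markers (1 lower in each). Without replicate 2 of TPR1-GFP eds1-2 the calls outside the stretch were 4493 higher and 5027 lower, and without replicate 1 of TPR1-GFP they were 4538 and 4959. The balance of the directions depended on the scaling of the libraries. Of the calls outside the stretch 48.0% were higher under TMM, 32.8% with the library total alone (3380 higher, 6939 lower) and 60.2% under upper-quartile scaling (5577 higher, 3685 lower). The library total alone moved the median log2 change of all genes by -0.17 and upper-quartile scaling moved it by 0.13.

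The genes of anthocyanin synthesis had the highest median change of the 37 lists apart from a list of 1 gene. The lists were chosen with earlier results of these data known, so this rank is a description and not a test. Anthocyanins are red and purple flavonoid pigments of the vacuole, made from naringenin chalcone by a chain of enzymes that MYB, bHLH and WD40 proteins switch on together. Of 14 listed genes 12 were higher in TPR1-GFP eds1-2 and none was lower, with a median log2 change of 3.1, against -0.03 over all genes tested. The 12 are 85.7% of the list, where 25.2% of all genes were higher. The summed level of the list was 568, 576 and 600.4 CPM in TPR1-GFP eds1-2, against 143, 145 and 161 CPM in TPR1-GFP. Of the 14 genes 11 were higher in each of the 3 libraries of TPR1-GFP eds1-2 than in all 9 other libraries of the study, where 5.75% of all tested genes were. With the library total alone the median was 2.94 and 1 gene was called lower.

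**Figure D1:**
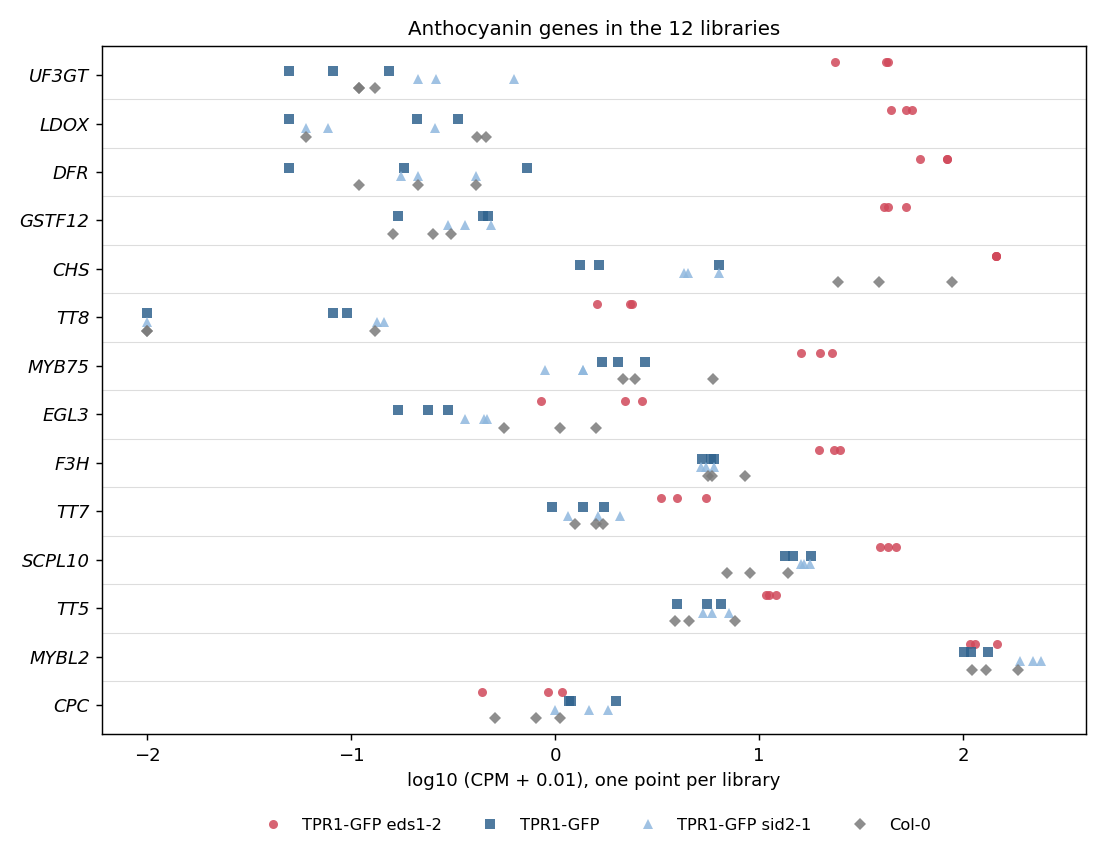
Levels of the 14 anthocyanin genes as log10 of CPM + 0.01, with 1 point per library and TPR1-GFP eds1-2 drawn above TPR1-GFP, TPR1-GFP sid2-1 and Col-0 in each row. The late enzymes UF3GT, LDOX and DFR sit at 23.61 CPM or more in every TPR1-GFP eds1-2 library and below 1 CPM in every TPR1-GFP library.

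Enzymes late in the chain stood farthest apart. UF3GT, a glycosyltransferase that adds a sugar to the pigment, had 42.7, 23.61 and 41.6 CPM in TPR1-GFP eds1-2, against 0.0719, 0.143 and 0.0398 CPM in TPR1-GFP (log2 change 8.55, SE 0.41, edgeR adjusted p = 1.6e-07). LDOX, which makes the coloured anthocyanidins, had 52.2, 44.3 and 56.2 CPM in TPR1-GFP eds1-2, against 0.323, 0.201 and 0.0398 CPM in TPR1-GFP (log2 change 8.01, SE 0.39). DFR, the enzyme one step before LDOX, had 83.6, 61.5 and 83.1 CPM in TPR1-GFP eds1-2, against 0.719, 0.172 and 0.0398 CPM in TPR1-GFP (log2 change 7.92, SE 0.42). In all 3 genes, named on condition of no overlap, even the lowest library of TPR1-GFP eds1-2 was far above the highest of TPR1-GFP. GSTF12, a glutathione S-transferase needed to bring the pigment into the vacuole, had 41.0, 42.7 and 52.5 CPM in TPR1-GFP eds1-2, against 0.431, 0.458 and 0.159 CPM in TPR1-GFP (log2 change 6.95, SE 0.24, edgeR adjusted p = 7.25e-09). AT5MAT, a malonyltransferase that decorates the pigment, was not on the list and was named for the size of its change. It had 22.1, 12.2 and 25.8 CPM in TPR1-GFP eds1-2, against 0.0719, 0.115 and 0 CPM in TPR1-GFP (log2 change 8.10, SE 0.56).

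Earlier enzymes and the regulators changed less. Chalcone synthase (CHS, symbol TT4), the entry enzyme of all flavonoids, rose by 5.56 log2 units (SE 0.61). The early enzymes F3H, TT7 and TT5 rose by 1.99, 1.64 and 1.08, and F3H lies in the stretch around EDS1. Among the regulators MYB75 (AT1G56650, also known as PAP1) had 16.03, 22.6 and 19.8 CPM in TPR1-GFP eds1-2, against 1.69, 2.03 and 2.75 CPM in TPR1-GFP, with no overlap (log2 change 3.18, SE 0.34). Its bHLH partners TT8 and EGL3 rose by 5.09 and 3.03. The repressors of the pathway did not pass the test. MYBL2 had a log2 change of 0.11 (SE 0.19, edgeR adjusted p = 0.653) and CPC one of -0.84 (SE 0.39, edgeR adjusted p = 0.091).

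The 250 bases before the gene start are shown for UF3GT and AT5MAT, which changed by similar amounts, from the RefSeq copy of TAIR10.1. UF3GT lies on the minus strand with its window at chr5:21938397-21938646, and AT5MAT on the minus strand with its window at chr3:11400333-11400582. Capitals mark the G-box CACGTG, a palindrome that bHLH and bZIP factors bind. It stood in the window of UF3GT at 2 places and was not among the letters of that of AT5MAT. CHS, F3H, DFR and SCPL10 also held it. LDOX, GSTF12, TT8, EGL3, MYB75, TT7 and TT5, which rose as well, did not. Of the 18634 windows of all tested genes 7.36% held it.
UF3GT: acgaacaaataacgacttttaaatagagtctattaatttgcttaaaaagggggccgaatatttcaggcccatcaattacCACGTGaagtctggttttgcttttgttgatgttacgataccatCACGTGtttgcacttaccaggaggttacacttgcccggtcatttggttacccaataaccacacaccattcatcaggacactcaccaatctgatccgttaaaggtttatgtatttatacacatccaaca
AT5MAT: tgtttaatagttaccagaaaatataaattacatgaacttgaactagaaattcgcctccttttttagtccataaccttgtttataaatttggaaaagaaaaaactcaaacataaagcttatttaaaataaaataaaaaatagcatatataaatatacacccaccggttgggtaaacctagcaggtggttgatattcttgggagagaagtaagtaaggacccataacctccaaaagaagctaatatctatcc

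Other genes also rose steeply outside the stretch. AT5G20750, a transposable element gene, had 534 counts in TPR1-GFP eds1-2 and 0 in TPR1-GFP and was at least 243.5-fold higher, from a floor of 3 counts over the 3 libraries. AT3G31023, another transposable element gene, was at least 49.3-fold higher. It is 1 of the 14 genes of chromosome 3 with codes from 30000 to 33000 by bin. Of those 14 genes 42.9% lay outside the range of the 9 other libraries. AT5G20750 and AT3G31023 have no symbol and were chosen after their values were seen. Genes with a symbol that rose steeply include VSP1, MBP1 and GIS. VSP1, a vegetative storage protein and a widely used jasmonate marker, had 48.6, 32.2 and 78.1 CPM in TPR1-GFP eds1-2, against 0.862, 0.344 and 0.159 CPM in TPR1-GFP (log2 change 6.84, SE 0.75, edgeR adjusted p = 3.58e-05). MBP1, a myrosinase-binding protein, had 18.5, 48.8 and 51.9 CPM in TPR1-GFP eds1-2, against 0.216, 0.43 and 0.518 CPM in TPR1-GFP (log2 change 6.66, SE 0.88). No overlap of the lines was a condition for naming both genes, and the Col-0 libraries held MBP1 at a mean of 239 CPM. GIS, a zinc finger protein that promotes trichomes, had 103 counts over the 3 libraries of TPR1-GFP eds1-2 and 1 count over those of TPR1-GFP, a ratio of 141 (95% interval 24.7 to 5620, from counting alone). Of 11 JAZ genes, repressors that jasmonate removes, 1 was higher and 2 were lower, with 3 higher without replicate 1 of TPR1-GFP eds1-2 and 1 lower without that library, its replicate 3 or replicate 2 or 3 of TPR1-GFP. Under upper-quartile scaling 3 were higher and 1 was lower. The main counts are 9.09% and 18.2% of the JAZ list, where 25.2% and 27.7% of all genes were higher and lower. TGG1, a leaf myrosinase that splits glucosinolates, had 5877, 3859 and 5243 CPM in TPR1-GFP eds1-2, against 1865, 1507 and 1913 CPM in TPR1-GFP (log2 change 1.5, SE 0.22).

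Several genes that fell had no count at all in TPR1-GFP eds1-2. For these too the fold is a lower bound from that floor, and floors and intervals cover counting error only. BGLU31, a beta-glucosidase, had 7.51, 11.1 and 13.9 CPM in TPR1-GFP and was at least 230-fold lower in TPR1-GFP eds1-2. ARI12, a RING-type ubiquitin ligase relative, was at least 216-fold lower, and HIPP22, a heavy-metal-binding protein, at least 202-fold. CRK38, a cysteine-rich receptor-like kinase, was at least 102-fold lower, and the glutathione S-transferase GSTL1 at least 38.5-fold. QQS, an Arabidopsis gene without relatives in other plants that affects starch, had 1 count in TPR1-GFP eds1-2 and 642 in TPR1-GFP, a ratio of 469 with an interval of 83.9 to 18562. It is AT3G30720, 1 of the 14 genes of chromosome 3 with codes from 30000 to 33000 by bin, of which 42.9% lay outside the range of the 9 other libraries. The lines did not overlap in any gene of this paragraph, which was a condition for naming them.

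The windows of BGLU31, CRK38 and GSTL1 are shown since each holds 1 W-box, the element that WRKY factors bind. They stand at chr5:8388029-8388278 on the minus strand, chr4:2241822-2242071 on the plus strand and chr5:630498-630747 on the plus strand of TAIR10.1. Capitals mark the W-box, searched as TTGACC or TTGACT on both strands, so that AGTCAA is TTGACT on the other strand. The windows of ARI12, HIPP22 and QQS did not hold these letters, nor did those of PR1 and AIG1, which are described below. Some genes that rose held the W-box too, LDOX at 3 places and DFR, GSTF12 and TT8 at 1 each. The windows of UF3GT and AT5MAT did not hold it.
BGLU31: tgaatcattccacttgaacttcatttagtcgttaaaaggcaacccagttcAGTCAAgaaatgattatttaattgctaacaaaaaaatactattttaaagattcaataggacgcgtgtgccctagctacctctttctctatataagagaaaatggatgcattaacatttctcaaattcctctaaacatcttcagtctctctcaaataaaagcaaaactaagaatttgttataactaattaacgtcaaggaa
CRK38: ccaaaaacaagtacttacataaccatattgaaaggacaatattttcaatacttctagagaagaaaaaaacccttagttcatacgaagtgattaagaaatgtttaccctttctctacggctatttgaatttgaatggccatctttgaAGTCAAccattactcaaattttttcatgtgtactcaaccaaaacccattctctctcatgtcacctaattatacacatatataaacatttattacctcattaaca
GSTL1: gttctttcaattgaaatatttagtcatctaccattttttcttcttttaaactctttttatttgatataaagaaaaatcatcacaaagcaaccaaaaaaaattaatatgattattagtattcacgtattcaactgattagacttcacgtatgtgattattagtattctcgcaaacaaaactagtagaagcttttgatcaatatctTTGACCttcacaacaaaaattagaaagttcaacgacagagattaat

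The secreted defence proteins PR1, BGL2 and PR5 were also lower. PR1, the common marker of salicylic acid responses, had 4.62, 3.16 and 0.953 CPM in TPR1-GFP eds1-2, against 1092, 2272 and 1855 CPM in TPR1-GFP (log2 change -9.22, SE 1.15, edgeR adjusted p = 8.02e-05). BGL2, the glucanase known as PR2, had 48.2, 59.9 and 18.8 CPM in TPR1-GFP eds1-2, against 1927, 3600 and 3152 CPM in TPR1-GFP (log2 change -6.09, SE 0.88). PR5, a thaumatin-like protein, had 145, 143 and 176 CPM in TPR1-GFP eds1-2, against 2046, 3067 and 3117 CPM in TPR1-GFP (log2 change -4.15, SE 0.29). The highest TPR1-GFP eds1-2 library was below the lowest TPR1-GFP library for each of them, as the rule for naming them required. AIG1, a GTP-binding protein induced by avirulent bacteria, fell by 8.73 log2 units (SE 0.89), to 1.11, 0.267 and 0.238 CPM in TPR1-GFP eds1-2, against 157, 229 and 297 CPM in TPR1-GFP. SHD, the HSP90 of the endoplasmic reticulum through which secreted and membrane proteins fold, fell by 1.94 (SE 0.24). UBQ10, often used to normalise leaf RNA, had 1128, 1570 and 1225 CPM in TPR1-GFP eds1-2, against 2236, 2719 and 2728 CPM in TPR1-GFP (log2 change -0.97, SE 0.15).

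**Figure D2:**
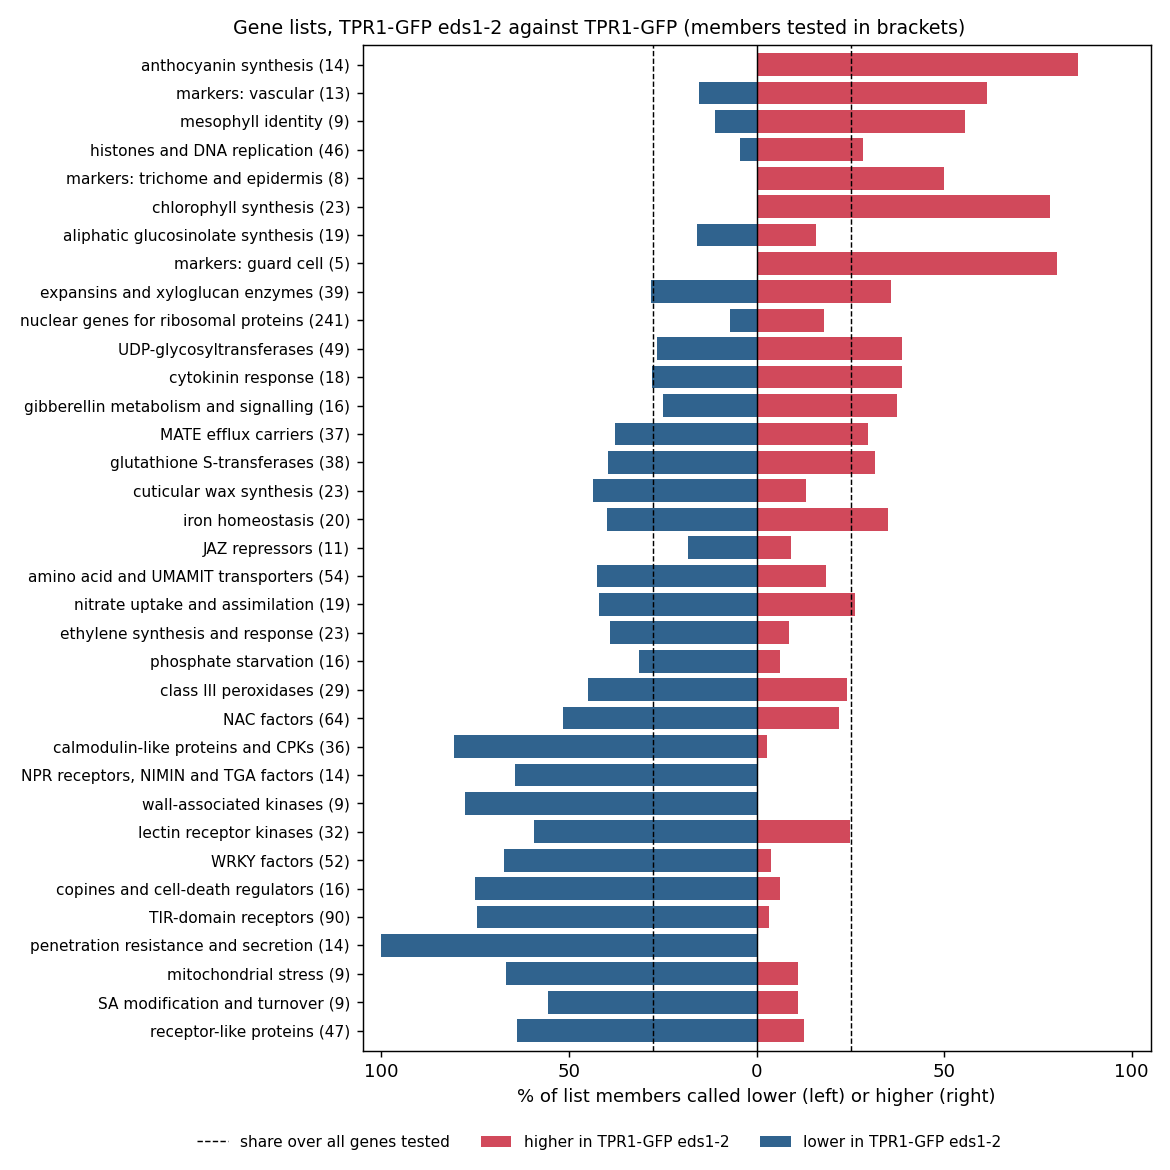
Percent of the members of each gene list called lower (bars to the left) and higher (bars to the right) in TPR1-GFP eds1-2 than in TPR1-GFP, in order of the median log2 change, with dashed lines at the shares over all genes tested (27.7% lower, 25.2% higher). The root and flower marker lists, with 3 and 1 genes tested, are not drawn. Lists of immune genes fill the lower rows with long bars to the left, and the anthocyanin and chlorophyll lists have no bar to the left.

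Enzymes that modify or degrade salicylic acid fell in 5 of 9 cases and rose in 1, with a median log2 change of -1.15. The count of higher genes was 3 under upper-quartile scaling, 2 without replicate 1 of TPR1-GFP eds1-2 or replicate 2 of TPR1-GFP, and 0 to 3 over all alternatives run. The main counts are 55.6% lower and 11.1% higher, and 64.3% of the NPR, NIMIN and TGA genes below were lower. Over all genes tested 27.7% were lower and 25.2% higher. DLO1 (AT4G10500), which hydroxylates salicylic acid and so inactivates it, had 2.79, 0.846 and 1.81 CPM in TPR1-GFP eds1-2, against 76.3, 150.3 and 146 CPM in TPR1-GFP (log2 change -6.10, SE 0.83). Its relative DMR6 had 42.2, 26.8 and 46.0 CPM in TPR1-GFP eds1-2, against 469, 636 and 648 CPM in TPR1-GFP (log2 change -3.93, SE 0.48). MES9, an esterase that releases salicylic acid from its methyl ester, fell by 2.68 (SE 0.40). EDS5, the carrier that exports a salicylic acid precursor out of the chloroplast, fell by 4.33 (SE 0.36). Downstream, 9 of 14 genes for NPR receptors, the NIMIN proteins that bind them and TGA factors were lower and none was higher, or 1 without replicate 2 of TPR1-GFP eds1-2 (median -0.77). The receptor NPR1 had 42.4, 47.7 and 45.4 CPM in TPR1-GFP eds1-2, against 65.8, 74.7 and 83.9 CPM in TPR1-GFP (log2 change -0.73, SE 0.13). NPR3, a corepressor that binds salicylic acid, fell by 1.08 (SE 0.16) and the bZIP factors TGA7 and TGA5 (symbol OBF5) by 2.05 and 1.23.

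More WRKY and NAC factors were lower than higher. Of the WRKY genes 67.3% were lower and 3.85% higher, and of the NAC genes 51.6% and 21.9%. Over all genes tested 27.7% were lower and 25.2% higher, so the share of higher NAC genes was near that of all genes. Of 52 WRKY genes 35 were lower and 2 higher, or 1 without replicate 3 of TPR1-GFP eds1-2 or replicate 1 of TPR1-GFP and 4 under upper-quartile scaling (median -0.89). WRKY41, WRKY75, WRKY55 and WRKY46 fell by 5.71, 5.23, 4.10 and 3.82 log2 units (SE 0.48, 0.60, 0.43 and 0.42). WRKY46 had 6.40, 7.08 and 7.44 CPM in TPR1-GFP eds1-2, against 72.6, 96.4 and 127 CPM in TPR1-GFP. WRKY70, an activator of salicylic acid responses, did not pass the test with a log2 change of -0.52 (SE 0.21, edgeR adjusted p = 0.0551), and its libraries overlapped between the lines. WRKY44, also called TTG2, is known for trichomes and seed coat pigment rather than defence. It rose to 3.18, 2.98 and 2.62 CPM in TPR1-GFP eds1-2, against 0.395, 0.372 and 0.398 CPM in TPR1-GFP (log2 change 2.90, SE 0.54). Of 64 NAC genes 33 were lower and 14 higher (median -0.59). NAC016, NAC090 and NAC042 fell by 4.88, 4.74 and 4.4, and NAC057 and NAC044 rose by 3.63 and 3.18.

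In each of the 3 listed families of cell-surface receptors more members were lower than higher. Between 59.4 and 77.8% of the members were lower and 0 to 25% higher, where 27.7% and 25.2% of all genes were. The share of higher lectin receptor kinases, 25%, was near that of all genes. Of 47 receptor-like proteins, which carry leucine-rich repeats outside the cell but no kinase, 30 were lower and 6 higher, or 3 without replicate 2 of TPR1-GFP (median -1.17). RLP7, RLP20, RLP39 and RLP28 fell by 5.93, 5.91, 5.91 and 5.57. RLP23, the receptor for nlp20, a peptide of microbial toxins, had 13.5, 16.1 and 11.8 CPM in TPR1-GFP eds1-2, against 310, 419 and 404 CPM in TPR1-GFP (log2 change -4.77, SE 0.62). TMM, the member that patterns stomata, went the other way and rose by 1.98 (SE 0.59). Of 9 wall-associated kinases and their relatives 7 were lower and none was higher (median -0.79), and 4 were lower under upper-quartile scaling or without replicate 1 of TPR1-GFP eds1-2 or replicate 2 or 3 of TPR1-GFP. WAK3 had 0.481, 0.312 and 0.429 CPM in TPR1-GFP eds1-2, against 51.0, 75.6 and 99.9 CPM in TPR1-GFP (log2 change -7.52, SE 0.83). Of 32 lectin receptor kinases 19 were lower and 8 higher, or 5 without replicate 2 of TPR1-GFP (median -0.82, or -0.74 with genes without counts at their bound). 7 of the 32 lie in the stretch around EDS1, among them LECRK-I.5 (AT3G45430), which had 0 counts in TPR1-GFP eds1-2 and 35 in TPR1-GFP and was at least 8.53-fold lower, and LECRK-I.6 (AT3G45440), which rose by 5.40.

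Inside the cell, 67 of 90 TIR-domain receptor genes were lower and 3 higher (median -0.94). These are 74.4% and 3.33% of the list, where 27.7% and 25.2% of all genes were lower and higher. AT4G11340 had no counts in TPR1-GFP eds1-2 and was at least 83.8-fold lower, and AT1G17615 was at least 43.6-fold lower. AT1G57630 had 0.289, 0.312 and 0.238 CPM in TPR1-GFP eds1-2, against 18.8, 24.7 and 29.9 CPM in TPR1-GFP (log2 change -6.42, SE 0.69). AT4G19530 was 1 of the 3 that rose, with 126, 112 and 106 CPM in TPR1-GFP eds1-2, against 60.9, 43.4 and 47.9 CPM in TPR1-GFP (log2 change 1.18, SE 0.15). Many TIR genes are near copies in clusters, between which counting can split reads, so values of single members are uncertain.

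Most genes for proteins that decode calcium signals were lower. Of 36 genes for calmodulin-like proteins and calcium-dependent kinases 29 were lower and 1 was higher (median -0.66). These are 80.6% and 2.78% of the list, where 27.7% and 25.2% of all genes were lower and higher. CML43, CML37 and CML8 (symbol CAM8) fell by 5.60, 5.28 and 4.49. TCH3, a calmodulin-like protein known from touch responses, had 39.5, 39.1 and 56.6 CPM in TPR1-GFP eds1-2, against 392, 469 and 589 CPM in TPR1-GFP (log2 change -3.42, SE 0.20). CPK28, a kinase that restrains pattern-triggered signalling, fell by 1.62 (SE 0.12), and CPK2 rose by 1.18.

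Regulators of cell death were mostly lower. Of 16 copines, metacaspases and other death regulators 12 were lower and 1 was higher (median -0.92). These are 75% and 6.25% of the list, where 27.7% and 25.2% of all genes were lower and higher. BAP1 and BAP2, small proteins that work with copines to prevent cell death, fell by 5.30 and 6.15, and the copine BON3 by 4.93. BAP1 had 0.433, 0.178 and 0.429 CPM in TPR1-GFP eds1-2, against 9.42, 12.4 and 19.3 CPM in TPR1-GFP. The metacaspases MC8 and MC2 fell by 5.62 and 3.23, the death suppressor BI1 by 1.63 and the oxidase RBOHD, which makes the oxidative burst, by 0.88. All 14 genes for penetration resistance and secretion at the plasma membrane were lower (median -1.04), where 27.7% of all genes were. The syntaxin SYP122, in the stretch around EDS1, fell by 3.35, the exocyst subunits EXO70H4 and EXO70B2 by 2.84 and 1.44, and MLO12 by 2.14. SNAP33, a partner of this syntaxin, had 54.6, 60.8 and 60.7 CPM in TPR1-GFP eds1-2, against 115, 144 and 157 CPM in TPR1-GFP (log2 change -1.24, SE 0.14).

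Detoxifying enzymes and carriers were called in both directions. Over these 5 lists 18.5 to 38.8% of the members were higher and 26.5 to 44.8% lower, where 25.2% and 27.7% of all genes were, and nothing about a list is read from a share near these. Of 49 UDP-glycosyltransferases 19 were higher and 13 lower (median 0.09), and with the library total alone 15 were higher and 17 lower (median -0.08). UGT76D1, which glycosylates hydroxylated salicylic acid, had no counts in TPR1-GFP eds1-2 and was at least 41.2-fold lower. UGT75B1, a cell plate and callose-associated enzyme, had 20.8, 22.9 and 21.1 CPM in TPR1-GFP eds1-2, against 2.73, 3.35 and 4.66 CPM in TPR1-GFP (log2 change 2.6, SE 0.20). Of 38 glutathione S-transferases 15 were lower and 12 higher (median -0.10, or 0.03 under upper-quartile scaling). GSTF7 had 25.7, 28.2 and 30.1 CPM in TPR1-GFP eds1-2, against 195, 355 and 289 CPM in TPR1-GFP (log2 change -3.32, SE 0.33), and GSTU10, GSTU9 and GSTU8 fell by 5.48, 5.17 and 4.85. GSTU20, a member tied to glucosinolate synthesis, rose by 1.7 (SE 0.36). Of 29 class III peroxidases 13 were lower and 7 higher (median -0.43). PRXR1 had 2635, 3542 and 2849 CPM in TPR1-GFP eds1-2, against 1338, 1244.6 and 1130.3 CPM in TPR1-GFP (log2 change 1.28, SE 0.12), while PRXCB, which feeds the apoplastic oxidative burst and lies in the stretch around EDS1, fell by 1.37 (SE 0.27).

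Of 37 MATE efflux carriers 14 were lower and 11 higher (median -0.05, or 0.08 under upper-quartile scaling), with EDS5 above among the lower ones. DTX1 had no counts in TPR1-GFP eds1-2, and AT5G44050 rose by 3.06 (SE 0.30). Of 54 amino acid and UMAMIT transporters 23 were lower and 10 higher (median -0.25). LHT1, which takes up amino acids into leaf cells, had 10.01, 27.2 and 13.97 CPM in TPR1-GFP eds1-2, against 77.2, 129 and 162 CPM in TPR1-GFP (log2 change -2.84, SE 0.42), and LHT7 and UMAMIT29 fell by 4.87 and 4.06. In the aliphatic glucosinolate pathway 3 of 19 genes were higher and 3 lower, each 15.8%, where 25.2% and 27.7% of all genes were. There was 1 lower without replicate 1 or 3 of TPR1-GFP eds1-2 or replicate 2 of TPR1-GFP. The balance turned with the scaling, with 5 higher and 1 lower under upper-quartile scaling and 2 higher and 5 lower with the library total alone, and over all alternatives run 2 to 8 were higher. IMS2, the chain-elongating enzyme also called MAM3, had 3 counts in TPR1-GFP eds1-2 and 902 in TPR1-GFP, a ratio of 219.8 with an interval of 74.96 to 1068. MYB29, an activator of the pathway, had 22.3, 21.3 and 21.9 CPM in TPR1-GFP eds1-2, against 8.66, 6.303 and 1.39 CPM in TPR1-GFP (log2 change 1.99, SE 0.50).

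Most listed genes of chlorophyll synthesis were higher, as were the antenna genes CAB1 and CAB3, named for the size of their CPM difference. CAB1, an antenna protein of photosystem II, had 27636, 25521 and 26036 CPM in TPR1-GFP eds1-2, against 15618, 14416 and 15422 CPM in TPR1-GFP (log2 change 0.80, SE 0.09, edgeR adjusted p = 4.15e-05). CAB3 and the Rubisco subunit RBCS1A rose by 1.3 and 0.86, though these families hold near-identical copies that counting can split. Of 23 genes of chlorophyll synthesis 18 were higher and none was lower (median 0.59), where 25.2% of all genes were higher. There were 11 higher with the library total alone, and as many without replicate 1 of TPR1-GFP eds1-2 or without replicate 2 or 3 of TPR1-GFP. PORB, which makes chlorophyllide in light, had 2317, 1817 and 2084 CPM in TPR1-GFP eds1-2, against 1311, 923 and 885 CPM in TPR1-GFP (log2 change 1.00, SE 0.16). CRD1 and GUN5, enzymes of the magnesium branch, rose by 0.84 and 0.59, and PORA did not pass the test (edgeR adjusted p = 0.448). Of 72 genes of the plastid genome 31 were higher and none was lower (median 0.60). Their summed level was 3371, 2610 and 3593 CPM in TPR1-GFP eds1-2, against 2136, 1365 and 1816 CPM in TPR1-GFP. Plastid RNA carries few poly(A) tails, and the part of the mRNA selection in these values was not tested. Of 20 mitochondrial genome genes 4 were lower (20%) and none was higher, where 27.7% of all genes were lower.

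Most ribosomal protein genes were not called. Of 241 ribosomal protein genes of the cytosolic and organellar types 43 were higher (17.8%) and 17 lower (7.05%), with a median of 0.20 and 181 not called. With the library total alone the counts were 32 and 28, under upper-quartile scaling 11 were lower, and without replicate 2 of TPR1-GFP eds1-2 there were 68 higher. RPS9 and RPL12-C, proteins of the plastid ribosome, rose by 1.15 and 1.1. RPS9 had 263, 187 and 253 CPM in TPR1-GFP eds1-2, against 131, 91.1 and 94.7 CPM in TPR1-GFP. Of 46 histone and DNA replication genes 13 were higher (28.3%) and 2 lower (4.35%), with a median of 0.62. Over all genes tested 25.2% were higher and 27.7% lower. Of the histone and replication genes 5 were lower with the library total alone. There were 23 higher without replicate 2 of TPR1-GFP eds1-2 or without replicate 1 of TPR1-GFP. Without any other single library 5 to 8 were higher.

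Growth and hormone genes were called in both directions. Among expansins and xyloglucan enzymes, gibberellin genes and cytokinin genes 35.9 to 38.9% were higher and 25 to 28.2% lower, where 25.2% and 27.7% of all genes were. Of 39 expansins and xyloglucan enzymes, which loosen cell walls, 14 were higher and 11 lower (median 0.41). EXPA15 had 65.8, 46.6 and 60.3 CPM in TPR1-GFP eds1-2, against 10.2, 4.10 and 5.10 CPM in TPR1-GFP (log2 change 3.16, SE 0.35). XTH18 had 1 count in TPR1-GFP eds1-2 and 196 in TPR1-GFP, a ratio of 143 with an interval of 25.4 to 5687. Of 16 gibberellin genes 6 were higher and 4 lower. GA2OX1 and GA2OX8, which inactivate gibberellins, rose by 4.44 and 3.77, while GA2OX2 of the same family and the receptor GID1B fell by 3.41 and 3.08. Of 18 cytokinin genes 7 were higher and 5 lower. ARR6, a response regulator used as a readout of the hormone, rose by 1.37 (SE 0.20), and CKX1 and CKX4, which degrade cytokinins, fell by 4.13 and 2.37. Of 23 ethylene genes 9 were lower and 2 higher (median -0.38), 14 were lower with the library total alone, and 0 or 1 was higher without any 1 library except replicate 2 of TPR1-GFP, with ERF105 (AT5G51190) and ERF104 down by 2.93 and 2.51 and the master factor EIN3 down by 0.82. Of 23 wax genes 10 were lower and 3 higher, with 6 lower without replicate 3 of TPR1-GFP, 6 higher without replicate 2 of TPR1-GFP eds1-2 and 1 higher without replicate 1 or 3 of TPR1-GFP eds1-2 or replicate 2 or 3 of TPR1-GFP. Under upper-quartile scaling 5 wax genes were lower and the median turned to 0.01, against -0.12 under TMM, and with the library total alone 1 was higher. KCS6, which elongates wax chains, had 107, 104 and 98.5 CPM in TPR1-GFP eds1-2, against 221, 209.9 and 226 CPM in TPR1-GFP (log2 change -1.09, SE 0.11).

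Among the iron, nitrate and phosphate lists 31.25 to 42.1% of the members were lower and 6.25 to 35% higher, where 27.7% and 25.2% of all genes were. The iron list was split, with 8 of 20 lower and 7 higher. Without replicate 3 of TPR1-GFP 5 were lower and 4 higher, without replicate 2 of TPR1-GFP eds1-2 4 were higher, and without its replicate 1 or 3 5 were lower. Under upper-quartile scaling 5 were lower as well. The iron stores FER1 and FER3 rose by 1.73 and 1.89, and FER1 had 500.2, 349 and 554 CPM in TPR1-GFP eds1-2, against 146, 151 and 126 CPM in TPR1-GFP. The phloem iron carrier OPT3 and the mitochondrial ferric reductase FRO3, which respond to iron shortage, fell by 1.28 and 1.49. Of 19 nitrate genes 8 were lower and 5 higher, or 3 with the library total alone (median -0.37). NIA2, the main nitrate reductase, had 236, 314 and 265 CPM in TPR1-GFP eds1-2, against 653, 866 and 720.4 CPM in TPR1-GFP (log2 change -1.46, SE 0.23), and NRT2.1, a high-affinity nitrate carrier, rose by 3.0 (SE 0.69). Of 16 phosphate starvation genes 5 were lower (8 without replicate 2 of TPR1-GFP eds1-2) and 1 was higher (3 under upper-quartile scaling), with the carrier PHT1;4 and the phosphatase PAP17 down by 2.37 and 2.15 and the exporter PHO1 up by 1.25. Of 9 genes of mitochondrial stress 6 were lower and 1 was higher (median -1.06). BCS1, in the stretch around EDS1, and the alternative oxidase AOX1D fell by 5.74 and 4.32.

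Some markers of cell types were called as well, and in leaf RNA fewer cells of a type and less RNA per cell cannot be told apart. Over all genes tested 25.2% were higher and 27.7% lower. In the mesophyll, vascular, guard cell and trichome lists 50 to 80% of the members were higher and 0 to 15.4% lower. Of the trichome and epidermis list 50% were called, where 52.9% of all genes were. These lists are short, so single genes move their shares by much. Of 9 mesophyll genes 5 were higher and 1 was lower, with summed levels of 58062 to 66909 CPM in TPR1-GFP eds1-2, against 35840 to 41768 CPM in TPR1-GFP. Of 13 vascular genes 8 were higher and 2 lower, or 1 without replicate 1 or 3 of TPR1-GFP eds1-2 or replicate 2 of TPR1-GFP, with sums of 801 to 946 CPM in TPR1-GFP eds1-2, against 547 to 727 CPM in TPR1-GFP. By at least 1 log2 unit 4 vascular genes were higher and 2 lower, and 1 mesophyll gene was higher and 1 lower. Among the vascular genes that rose, the sieve element protein SEOR1 changed by 2.53 (SE 0.26) and the companion cell sucrose carrier SUC2 by 0.70 (SE 0.12). Of 5 guard cell genes 4 were higher, though 1 was with the library total alone and 2 were without replicate 1 or 3 of TPR1-GFP eds1-2 or replicate 2 or 3 of TPR1-GFP, with sums of 58.6 to 78.7 CPM in TPR1-GFP eds1-2, against 49.3 to 55.0 CPM in TPR1-GFP. SLAC1 (symbol OZS1), the anion channel that closes stomata, rose by 1.35 (SE 0.18). Of 8 trichome and epidermis genes 4 were higher, or 2 without replicate 1 or 3 of TPR1-GFP eds1-2 or replicate 2 of TPR1-GFP, among them TRY at 1.93 (SE 0.31), with overlapping sums of 217 to 305 CPM in TPR1-GFP eds1-2 and 209 to 262 CPM in TPR1-GFP. Of 3 root genes 2 were lower, or 1 without any 1 library except replicate 2 of TPR1-GFP, with sums of 22.2 to 25.5 CPM in TPR1-GFP eds1-2, against 32.8 to 35.5 CPM in TPR1-GFP. AG, the floral organ gene and the 1 flower marker in the table, had 2.26, 2.18 and 2.00 CPM in TPR1-GFP eds1-2, against 0.252, 0.286 and 0.0796 CPM in TPR1-GFP (log2 change 3.30, SE 0.43). All these markers had counts in every library of the lines. The part of cell composition in the changes of the other lists was not tested.

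In the stretch around EDS1 511 of 838 genes were called, or 61%, with 211 higher (25.2%) and 300 lower (35.8%), against 52.5% outside it. Of these genes 134 (16%) were lower in TPR1-GFP eds1-2 than in all 9 other libraries, against 5.98% of genes outside, and 53 (6.32%) were higher than all of them, against 5.72%. The share of such genes changed along the chromosome. The share of genes outside the range of the other 9 libraries, above or below, was 27.6 to 46.4% in the bins of 1000 locus codes that start at 42000 to 47000. It was 12.3% in the bin that starts at 48000, which holds EDS1. It was 10.4 to 20.99% in the bins that start at 49000 to 54000, and 11.4 to 12.9% on chromosomes 1, 2, 4 and 5. Among the 287 genes of the bins from 42000 to 47000 together 35.9% lay outside that range and 69.0% were called. Before the stretch, 14 genes with codes of 30000 to 33000 by bin had a share of 42.9%.

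**Figure D3:**
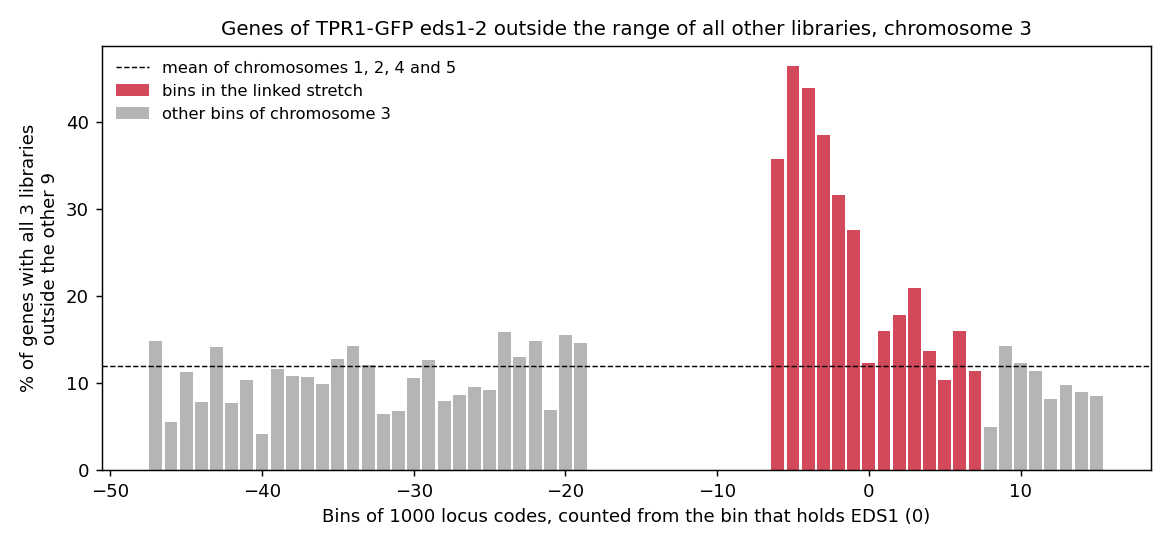
Share of genes on chromosome 3 whose TPR1-GFP eds1-2 libraries all lie above or all lie below the other 9 libraries, in bins of 1000 locus codes, with bins under 10 genes not drawn. The bins that start at 42000 to 47000 reach 27.6 to 46.4%, and the bin that holds EDS1 is at 12.3%.

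Some genes that were level in the other 3 genotypes were far lower in TPR1-GFP eds1-2, in the stretch and outside it. The limits used here were chosen after values were seen: group means within 1.5 times of each other in the other 3 genotypes, at least 1 CPM in each, and at least 4 times lower in TPR1-GFP eds1-2. Of 140 such level genes of the bins from 42000 to 47000 11 were low (7.86%), of those with higher codes in the stretch none was, and outside the stretch 10 of 9242 were (0.108%). No gene that was level in this sense was at least 4 times higher. Genes near 0 CPM in the other 3 genotypes could not enter this count, since at least 1 CPM was required in each. AT3G45440 was left out in this way, with means of 0.224 CPM in TPR1-GFP, 0.212 CPM in the sid2-1 line and 0.311 CPM in Col-0. Its mean was 9.44 CPM in TPR1-GFP eds1-2. The count therefore says nothing about gains from such low levels. HSD2 (AT3G47350), a hydroxysteroid dehydrogenase, had 0, 0.0445 and 0 CPM in TPR1-GFP eds1-2, against 22.96, 21.5 and 23.57 CPM in TPR1-GFP. That is 1 count against 1983, a ratio of 1449 with an interval of 259.8 to 57275, and its mean was 22.1 CPM in the sid2-1 line and 21.8 CPM in Col-0. AT3G47680, a DNA-binding protein, had a ratio of 847 and the transposable element gene AT3G43955 one of 890.2. The leucine-rich repeat gene AT3G43740 had a ratio of 470.4. LAS1 (AT3G45130), a lanosterol synthase that was not level in this sense, had 0 counts in TPR1-GFP eds1-2 and 1656 in TPR1-GFP and was at least 403-fold lower, and its mean was 1.87 CPM in the sid2-1 line and 0.143 CPM in Col-0.

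**Figure D4:**
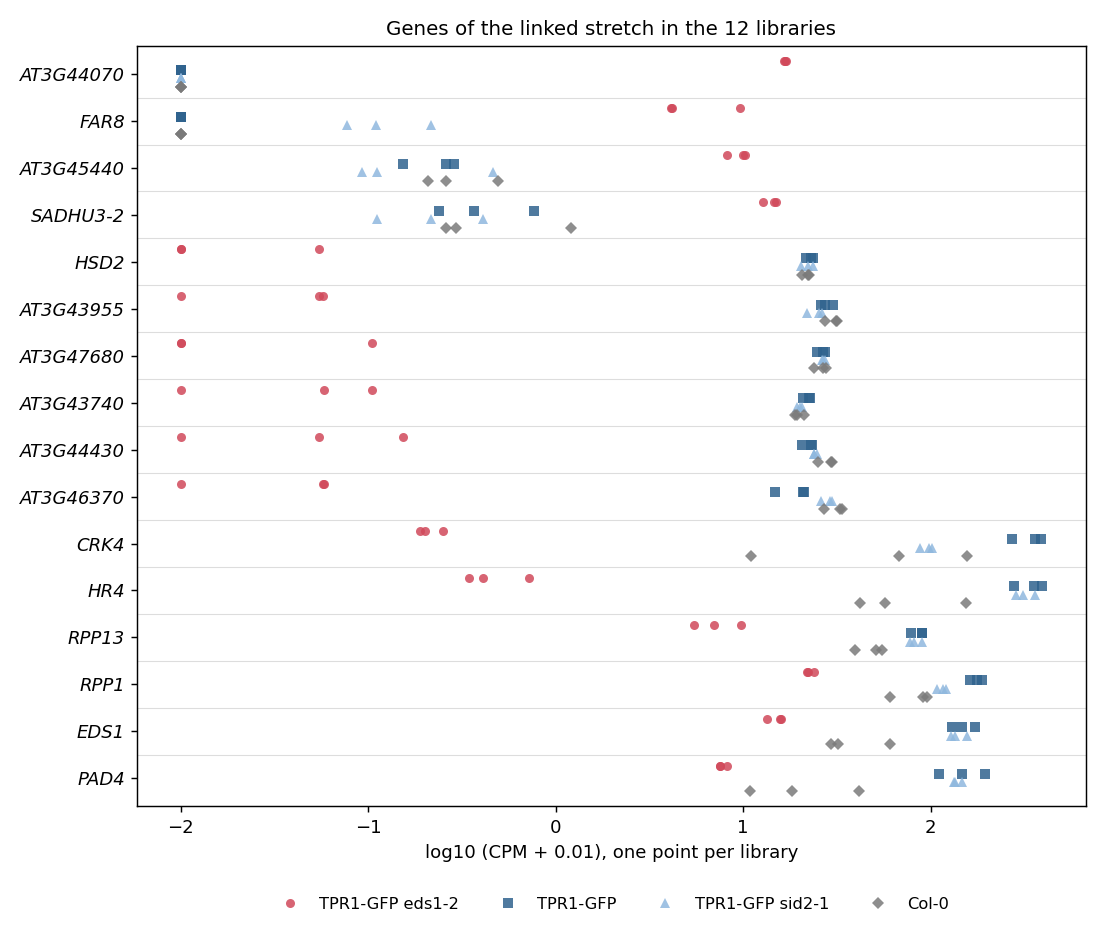
Levels of 16 genes of the stretch as log10 of CPM + 0.01, with 1 point per library and TPR1-GFP eds1-2 drawn above TPR1-GFP, TPR1-GFP sid2-1 and Col-0 in each row. HSD2 sits near 0 in TPR1-GFP eds1-2 and at 21.5 to 23.57 CPM in TPR1-GFP, while EDS1 keeps 13.5 to 15.99 CPM in TPR1-GFP eds1-2.

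Some genes of the stretch had counts in TPR1-GFP eds1-2 and none in TPR1-GFP. AT3G44070 had 16.99, 16.5 and 16.6 CPM in TPR1-GFP eds1-2 and no counts in the 9 other libraries, and it was at least 489-fold higher than in TPR1-GFP. FAR8, a fatty acyl reductase, was at least 175-fold higher. The peroxidase PRXCA rose by 6.46 (SE 0.42) and the transposon-related SADHU3-2 by 5.02. XTH31 rose by 4.85 (SE 0.54). For these gains too, a changed transcript level and donor sequence in TPR1-GFP eds1-2 cannot be told apart in counts.

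Known immune genes also lie in the stretch. EDS1, at chr3:17755329-17758147 on the minus strand, had 13.5, 15.99 and 15.7 CPM in TPR1-GFP eds1-2, against 130, 148 and 173 CPM in TPR1-GFP (log2 change -3.32, SE 0.25, edgeR adjusted p = 3.74e-06). Its near copy AT3G48080 next to it, with which it can exchange reads, fell by 2.68 (SE 0.41). PAD4 had 7.51, 8.20 and 7.48 CPM in TPR1-GFP eds1-2, against 111, 147 and 195 CPM in TPR1-GFP (log2 change -4.28, SE 0.42). The receptor kinase CRK4 had 0.241, 0.178 and 0.191 CPM in TPR1-GFP eds1-2, against 272, 361 and 389 CPM in TPR1-GFP (log2 change -10.68, SE 1.05). HR4, a homologue of the mildew resistance protein RPW8, fell by 9.46 (SE 0.60). The downy mildew receptors RPP13 and RPP1, both known to vary between accessions, fell by 3.54 and 2.95. RPP1 had 22.2, 23.9 and 22.0 CPM in TPR1-GFP eds1-2, against 162, 176 and 188 CPM in TPR1-GFP. For all of these genes a lower transcript level and donor sequence in TPR1-GFP eds1-2 cannot be told apart in counts. EDS1 is also the gene that the eds1-2 mutation hits, and the part of the mutation in its counts was not tested.

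Promoter windows of the genes outside the stretch were searched for 7 short motifs, in the 250 bases before each gene start and on both strands. The W-box (TTGACC or TTGACT) stood in 46.0% of the windows of genes lower by at least 2 log2 units (379 of 824), in 35.4% of all genes called lower, in 26.3% of genes not called, in 23.49% of genes called higher and in 28.1% of the 18634 windows of all tested genes, those of the stretch included. The TGA site (TGACG), which shares TGAC with the W-box but differs in the next base, stood in 23.4% of the windows of the genes lower by at least 2 log2 units and in 19.4% of all. The G-box (CACGTG) stood in 9.70% of the windows of genes higher by at least 2 log2 units, in 5.58% of those lower by as much and in 7.36% of all. The site II element GGCCCA of ribosomal and housekeeping promoters stood in 6.92% of windows of genes lower and 10.1% of windows of genes higher by at least 2 log2 units, against 19.8% of genes not called and 17.2% of all. The MYB3R core AACGG stood in 16.5% of the windows of the genes lower by at least 2 log2 units, in 24.8% of those higher and in 22.1% of all. The CRT/DRE (ACCGAC or GCCGAC) and the evening element (AAATATCT) stood in 7.96% and 5.09% of all windows and in 5.58% and 5.95% of the windows of the genes lower by at least 2 log2 units. These shares are descriptions, since neighbouring and duplicated genes share sequence, and no test was made on them.

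**Figure D5:**
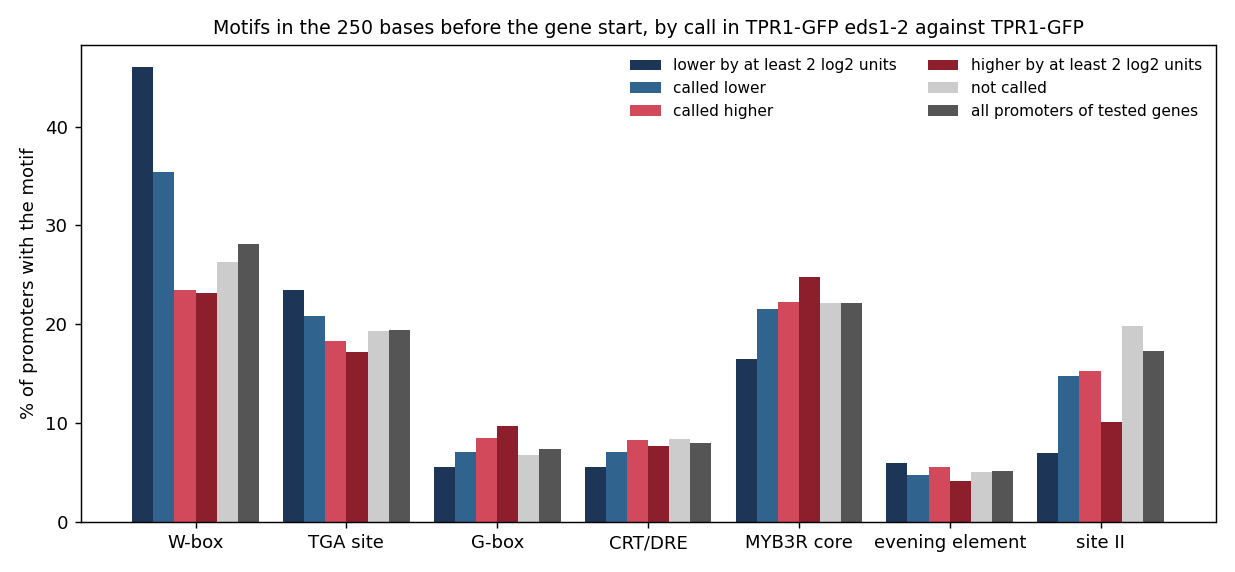
Share of 250-base promoter windows that hold each of 7 motifs, by the change of the gene in TPR1-GFP eds1-2 over TPR1-GFP. The W-box share is 46.0% for genes lower by at least 2 log2 units, 26.3% for genes not called and 23.1% for genes higher by at least 2 log2 units.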

How the data were processed

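The data are 12 leaf mRNA libraries, 3 for each of 4 genotypes. According to the submitters' processing notes the authors used TopHat2, HTSeq and limma on TAIR10, and versions and strandedness are not given in the sources used here. The deposited table holds counts per gene and library (lowest gene sum 101). It also holds log2 CPM per library and, as deposited, the authors' log2 change, fold ratio and adjusted p-value for the comparison, used as an alternative only. The 6 other columns of values were not used.

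Counts were fitted in R 4.3.3 with edgeR 4.0.16 (filterByExpr, TMM, robust quasi-likelihood test, all 12 libraries, genotype as the only term), and the fit was tested on simulated data. The SE was derived from the log2 change and the F statistic. Of the gene IDs 18777 were found in the RefSeq table, and 18634 promoter windows were read from TAIR10.1.

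Members and the 37 lists were chosen with earlier results of these data known, and description patterns for peroxidases and MATE carriers were added and wrongly matched genes dropped after the files were seen. Outside the stretch, the genes with a symbol, no overlap of the lines and a mean of at least 1 CPM could be named where they were among the 8 with the largest log2 change or the 8 with the largest CPM difference in a direction. Per list up to 4 called members with the largest change and defining members were named, and in the stretch the 6 with the largest change in each direction with EDS1, its neighbour and PAD4. Members named beyond these limits were picked for their known roles after their values were seen. Alternatives were DESeq2 1.42.0, limma 3.58.1 (voom), other scalings and filters, fewer libraries and a replicate block.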

Additional observations from a re-analysis of the deposited data

How the results depend on the processing

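The 4 counts of genes called higher or lower, outside and inside the stretch around EDS1, stayed within 1.5 times of their values under the alternatives run. Leaving out 1 library of the 6 at a time gave 3671 to 4538 higher and 3970 to 5027 lower genes outside the stretch, and 173 to 210 higher and 255 to 298 lower genes inside it. DESeq2 gave 4858 and 4756 outside, limma voom 4564 and 4996, no filter on low counts 4546 and 4932, and the 6 libraries alone 4501 and 4199. The authors' deposited table had 4658 genes higher and 5460 lower in TPR1-GFP eds1-2 over all genes, of which 9797 were called here in the same direction. Of the values for named genes under an alternative 2902 kept their direction and side of the threshold, 91 kept the direction but missed the threshold and 0 reversed. These values cover the genes chosen by the size of their change, with EDS1, its neighbour, PAD4 and TPR1. Genes picked for known roles were covered only where they were also among those. Genes with the largest changes in the main fit are the least likely to reverse, so these numbers say little about other genes. Of the values for lists 1154 moved little and 104 moved more. Same-numbered libraries of the lines had deviations that correlated at 0.356, 0.355 and -0.0527. Libraries of unlike numbers were not compared in this way, so these values cannot show whether the numbers mark pairs. The main fit did not pair the libraries, since the labels tie no number to an experiment. With the number as a replicate block the calls were 4436 higher and 4909 lower outside the stretch and 204 and 300 inside it. Depth limits genes near 0 counts, for which a fold is a bound or has a wide interval.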
